A study of Mus musculus with 16 samples.

Results

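The keratins of the colonic epithelium were followed through RNA sequencing of sorted cells: Krt7, Krt8, Krt18, Krt19, Krt20 and Krt23. They are listed by gene name, with no threshold on their values, and their rows were found by Ensembl identifier. They are 6 of the 54 keratin genes and of the 45513 genes in the count files. The 16 libraries came from the colon of 8 mice of C57BL/6 background, males and females of 8 to 16 weeks of age. All mice were homozygous for Atoh1(WT)CreERT2, a knock-in that places the tamoxifen-inducible recombinase CreERT2 downstream of the intact Atoh1 coding sequence, and heterozygous for R26R tdTom, a reporter that Cre switches on for good. Each mouse gave a tdTom+ and a tdTom- library, so both groups carried the same alleles and the same tamoxifen and each held 8 libraries. Tamoxifen was given at 1 mg daily for 3 days by the labels. The study's methods on the animals of the secretory signature give the same schedule, while those on RNA sequencing describe an injection with collection on the following day. Live EpCAM+ cells of crypt fractions were sorted, so that tdTom+ cells are those that had Atoh1 on during labelling and tdTom- cells are all other epithelial cells, a mixture of absorptive, stem, proliferating and further cell types that also takes in any Atoh1-expressing cell that escaped recombination. The reporter marks a cell and its descendants, and therefore does not show that Atoh1 was on at the time of the sort.

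Keratins are the intermediate filament proteins of epithelial cells. A filament is built from heterodimers of a type I and a type II keratin in equal amounts, and a keratin without a partner is broken down. In the simple epithelium of the gut KRT8 is the main type II keratin and pairs with the type I keratins KRT18, KRT19 and KRT20, and mice that lack KRT8 develop inflammation of the colon.

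The total count was 16482530 to 24218367 per tdTom+ library and 18318172 to 45791503 per tdTom- library, of which mouse 4 gave the largest. A floor of 3 counts corresponded to 0.124 to 0.182 counts per 1e6 counts (CPM) in tdTom+ libraries and 0.0655 to 0.164 CPM in tdTom- libraries, which covers counting error only. Mitochondrial genes took 2.23% to 6.92% of the counts in tdTom+ and 3.74% to 9.97% in tdTom- libraries, and in each of 8 mice the tdTom+ library had the smaller share. The part of this difference in the keratin values was not tested. Atoh1, the gene that drives the label, averaged 132 CPM in tdTom+ libraries against 5.70 CPM in tdTom- libraries (log2 fold change 4.54, SE 0.15). Markers of 3 cell types moved with the sort as whole lists. All 8 goblet genes were higher (summed level 49189 to 103033 CPM in tdTom+ against 2229 to 8663 CPM in tdTom- libraries), and all 8 absorptive colonocyte genes were lower (513 to 766 against 5882 to 11328 CPM), as were all 6 enteroendocrine genes (282 to 749 against 1365 to 3996 CPM). The log2 fold change was 3.73 for Clca1 and 3.76 for Fcgbp of the goblet list, -4.15 for Car1 and -4.98 for Car4 of the absorptive list, and -2.995 for Chga and -2.29 for Chgb of the enteroendocrine list. The part that these differences in cell make-up play in the keratin values below was not tested, and in such bulk samples fewer cells of a type and less RNA per cell cannot be told apart.

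The keratins did not move as a block. Krt7 and Krt18 were higher in tdTom+ cells by 2.36-fold and 1.598-fold, whereas Krt8 and Krt19 were lower by 2.11-fold and 2.05-fold, Krt20 by 9.85-fold and Krt23 by 1.31-fold. All 6 passed edgeR's quasi-likelihood test at a Benjamini-Hochberg adjusted p of 0.01, 2 of them higher and 4 lower. This fit was on population alone, and all 6 also passed with the mouse as a replicate block. The background is wide, since 51% of the 15841 genes tested passed, 25.5% higher and 25.5% lower, so that passing the test does not set the keratins apart. With the block it was wider, with 4494 genes higher and 4574 lower. In 5 of the 6 the libraries of both groups did not overlap, which was so for 30.5% of all genes tested (15.2% higher, 15.3% lower). Each of the 6 differed in the same direction in 8 of 8 mice, which held for 51.4% of genes tested. Together the 6 keratins took 0.413% to 0.515% of normalised counts in tdTom+ libraries and 0.732% to 0.994% in tdTom- libraries, and they held 99.7% of all counts on keratin genes.

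**Figure D1:**
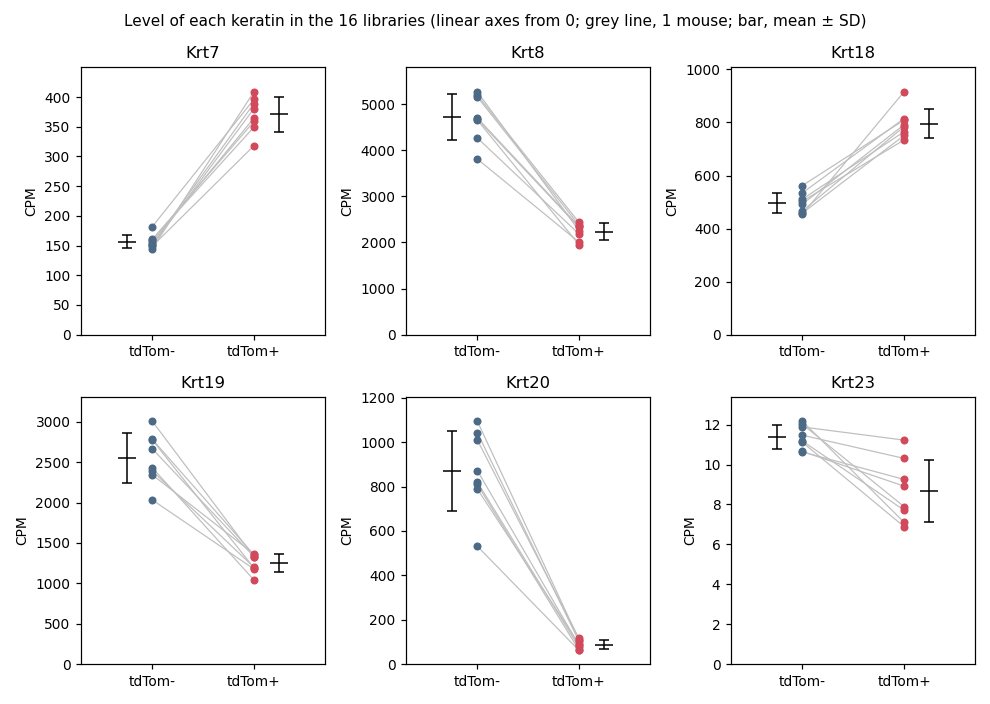
Level of Krt7, Krt8, Krt18, Krt19, Krt20 and Krt23 in CPM (linear axes from 0) in the 8 tdTom- (blue) and 8 tdTom+ (red) libraries, with a grey line joining the libraries of a mouse and a bar at the mean ± SD of each group. Krt7 and Krt18 rise and the other 4 fall in every mouse, and only for Krt23 do the ranges of both groups overlap.

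The stretches just before the RefSeq start of Krt8, Krt18, Krt7 and Krt20 are shown because the first of these genes fell and the next rose although they are neighbours, and because the other 2 carried the strongest changes in each direction. Each is 250 bases, read 5′ to 3′ on the strand of the gene and taken from RefSeq on GRCm38.p6, and capitals mark each match to CANNTG, the E-box read by basic helix-loop-helix factors such as ATOH1, or to TATAAA. The stretches lie at chr15:102004343-102004592 (minus strand) for Krt8, chr15:102027966-102028215 (plus) for Krt18, chr15:101412153-101412402 (plus) for Krt7 and chr11:99438154-99438403 (minus) for Krt20.
Krt8: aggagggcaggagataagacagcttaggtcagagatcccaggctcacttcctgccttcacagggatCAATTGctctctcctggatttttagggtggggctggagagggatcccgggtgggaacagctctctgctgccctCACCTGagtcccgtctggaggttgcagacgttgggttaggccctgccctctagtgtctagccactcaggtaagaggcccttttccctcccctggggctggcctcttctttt
Krt18: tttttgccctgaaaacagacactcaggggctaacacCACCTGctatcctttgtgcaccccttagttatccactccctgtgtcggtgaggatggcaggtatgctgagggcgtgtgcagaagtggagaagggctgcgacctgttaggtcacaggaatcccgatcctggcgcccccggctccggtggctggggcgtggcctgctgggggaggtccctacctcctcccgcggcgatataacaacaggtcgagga
Krt7: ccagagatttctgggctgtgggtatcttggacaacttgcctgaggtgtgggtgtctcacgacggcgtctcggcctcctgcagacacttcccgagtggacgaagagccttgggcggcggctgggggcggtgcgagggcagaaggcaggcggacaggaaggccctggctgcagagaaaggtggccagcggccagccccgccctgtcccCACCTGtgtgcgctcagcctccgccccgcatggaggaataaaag
Krt20: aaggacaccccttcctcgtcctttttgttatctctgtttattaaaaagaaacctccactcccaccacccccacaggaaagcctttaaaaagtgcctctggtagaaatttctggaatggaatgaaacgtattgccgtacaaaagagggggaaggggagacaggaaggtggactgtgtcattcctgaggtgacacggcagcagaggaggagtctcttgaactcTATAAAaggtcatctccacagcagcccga
Krt8 holds CANNTG at 2 places, Krt18 and Krt7 at 1 each and Krt20 at none, against a match in 66.2% of the 32841 promoters of this length. On both strands TATAAA was found in Krt20 alone of the 4, beginning 29 bases before the start, and in 12.4% of all promoters. The motif GGGCGG was found at 4 places in Krt7 and in none of the other 3 stretches (32.7% of all promoters hold it). TTTATNG was matched in Krt20 alone, where it overlaps TATAAA (9.81% of all promoters), and neither CAGCTG (13.0%) nor CCAAT (33.9%) was in any of the 4. The form CACCTG, picked out after the matches had been seen and contained in CANNTG, is present in Krt8, Krt18 and Krt7 and in 17.2% of all promoters. Krt8, which fell, and Krt18 and Krt7, which rose, thus share these letters, and a match is a description of the sequence and not a bound site. The stretch of Krt7 lies inside the gene as counted, which also takes in transcripts that begin further upstream. Krt23 has an entry that is not printed, and Krt19 is named only.

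Of the type II keratins, Krt8 (ENSMUSG00000049382) is the main partner of every type I keratin in this epithelium. The gene (GRCm38, chromosome 15, 101996711 to 102004342, minus strand) is transcribed away from Krt18, and reads over its exons were counted. The 8 tdTom+ libraries ran from 1952 to 2437 CPM with a median of 2292 CPM, and the 8 tdTom- libraries from 3809 to 5267 CPM with a median of 4685 CPM. The lowest tdTom- library, of mouse 1, was therefore above the highest tdTom+ library, of mouse 6. Means were 2236 ± 176 CPM (tdTom+) and 4714 ± 501 CPM (tdTom-; SD, n = 8 mice each), and the log2 fold change was -1.08 (SE 0.08, adjusted p = 4.66e-10, edgeR). Within a mouse the log2 difference lay between -1.25 and -0.92. Of the 1909 windows of 50 bases, the read length, in the Krt8 transcript, 26.9% also occur without a mismatch in the processed copy Krt8-ps, which is not among the counted genes, and reads from these windows could have been placed there. How much this lowers the Krt8 count was not tested.

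Krt7 (ENSMUSG00000023039; chromosome 15, 101411043 to 101430313, plus strand) is a type II keratin of simple and glandular epithelia. Its level was 318 to 409 CPM in tdTom+ libraries (median 373 CPM) and 145 to 182 CPM in tdTom- libraries (median 154 CPM). The groups were far apart, with the lowest tdTom+ library, of mouse 7, well above every tdTom- library. The means were 371 ± 29.1 CPM and 157 ± 11.5 CPM (SD, n = 8), a log2 fold change of 1.24 (SE 0.06, adjusted p = 4.97e-13, edgeR) that lay between 1.09 and 1.497 within a mouse. The type II keratins thus differed in opposite directions. The level of Krt7 stayed far under that of Krt8 in either population: per kilobase of exon, tdTom+ cells had 23.7 ± 2.24 times and tdTom- cells 118 ± 15.97 times as much Krt8 as Krt7. The count files give Krt7 an exon length of 7055 bases that joins several transcripts, and with the RefSeq-linked transcript of 4094 bases the ratios were 12.7 and 63.3.

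Of the type I keratins, Krt18 (ENSMUSG00000023043; chromosome 15, 102028216 to 102032026, plus strand) is the classic partner of Krt8 and lies beside it among the type II genes. It was at 734 to 916 CPM in tdTom+ libraries (median 788 CPM) and at 454 to 562 CPM in tdTom- libraries (median 498 CPM). Every tdTom+ library was above every tdTom- library, and the highest, of mouse 2, stood apart from the other 7. The means were 796 ± 55.9 CPM and 498 ± 38.1 CPM (SD, n = 8), with a log2 fold change of 0.68 (SE 0.06, adjusted p = 1.07e-08, edgeR). Without mouse 2 it was 0.63 and still passed.

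Krt19 (ENSMUSG00000020911; chromosome 11, 100140810 to 100148665, minus strand) is the smallest type I keratin of simple epithelia, as it lacks most of the tail domain. In tdTom+ libraries it was at 1043 to 1363 CPM with a median of 1264 CPM, and in tdTom- libraries at 2033 to 3008 CPM with a median of 2549 CPM. The ranges did not meet. The means were 1249 ± 114 CPM and 2554 ± 311 CPM (SD, n = 8), and the log2 fold change was -1.03 (SE 0.09, adjusted p = 1.60e-09, edgeR). The mice ranged from -1.22 to -0.78, with mice 1 and 2 at the weak end.

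Krt20 (ENSMUSG00000035775; chromosome 11, 99428403 to 99438150, minus strand), the type I keratin of differentiated cells at the luminal surface of the gut and a common marker of intestinal differentiation, differed most of the 6. It was at 62.0 to 116 CPM in tdTom+ libraries (median 88.2 CPM) and at 531 to 1094 CPM in tdTom- libraries (median 846 CPM). Even the lowest tdTom- library, of mouse 4, was several times above the highest tdTom+ library. With means of 88.4 ± 20.6 CPM and 871 ± 180.2 CPM (SD, n = 8), the log2 fold change was -3.30 (SE 0.16, adjusted p = 2.63e-13, edgeR), and a called fall of at least 3.0 on the log2 scale was seen for 1.36% of the genes tested. The CPM of Krt20 differed between mice in step in both populations, with mouse 4 lowest and mice 2, 6 and 8 highest in each, and the SE was 0.07 once the mouse was in the model. Krt20 was still well over the floor in tdTom+ cells, where the absorptive colonocyte genes were also present (513 to 766 CPM summed).

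Krt23 (ENSMUSG00000006777; chromosome 11, 99477974 to 99493137, minus strand), a less studied type I keratin, was the lowest of the 6 and changed least. Its level was 6.89 to 11.2 CPM in tdTom+ libraries (median 8.41 CPM) and 10.6 to 12.2 CPM in tdTom- libraries (median 11.3 CPM). The tdTom+ library of mouse 2 lay inside the tdTom- range, so the groups overlapped. The means were 8.67 ± 1.55 CPM and 11.4 ± 0.596 CPM (SD, n = 8), with a log2 fold change of -0.39 (SE 0.10, adjusted p = 0.0013, edgeR). The difference was -0.15 and -0.08 in mice 1 and 2 but -0.77 in mouse 7. In mice 1 to 3 alone the change was -0.26 and did not pass the threshold (adjusted p = 0.2136, edgeR), and in mice 5 to 8 alone it was -0.56 (adjusted p = 0.00068, edgeR). Whether the series of mouse numbers differ from each other was not tested.

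**Figure D2:**
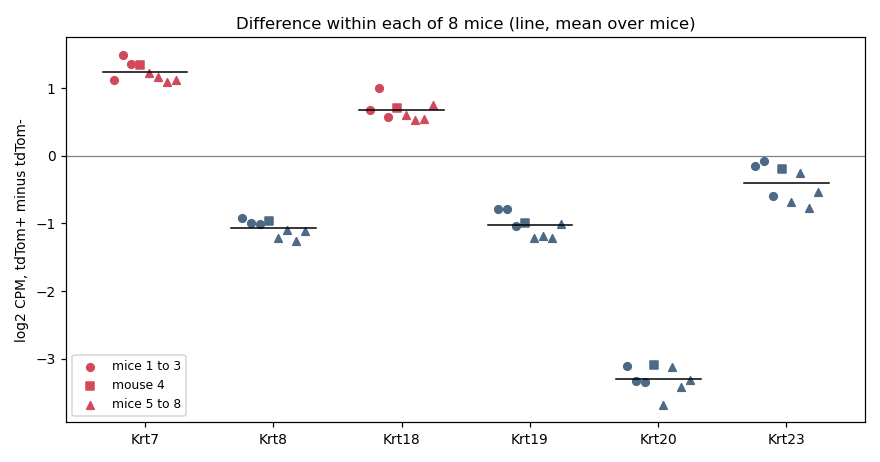
Difference in log2 CPM between the tdTom+ and the tdTom- library of each of 8 mice for the 6 keratins, with symbols for the runs of mouse numbers and a line at the mean. The points of Krt7 (1.09 to 1.497) and Krt18 are all above 0, those of Krt8, Krt19 and Krt20 (-3.68 to -3.10) are far below it, and those of Krt23 (-0.77 to -0.08) reach close to 0.

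Divided by exon length, the levels of these genes can be set against each other. In tdTom- cells the order was Krt8 (2612 ± 277 CPM per kilobase), Krt19 (1377 ± 168), Krt20 (452 ± 93.5), Krt18 (356 ± 27.2), Krt7 (22.2 ± 1.63) and Krt23 (7.28 ± 0.381; SD, n = 8). The ranges of Krt20 (276 to 568) and Krt18 (325 to 402) overlapped, so the order of these neighbours was not the same in every library. In tdTom+ cells it was Krt8 (1239 ± 97.5), Krt19 (673 ± 61.4), Krt18 (568 ± 39.9), Krt7 (52.5 ± 4.13), Krt20 (45.9 ± 10.7) and Krt23 (5.54 ± 0.987). There the ranges of Krt19 (562 to 735) and Krt18 (524 to 654) overlapped, and so did those of Krt7 (45.1 to 58.0) and Krt20 (32.2 to 60.0). With the transcript in place of the exon length the ranges of Krt7 and Krt20 were apart, at 90.5 ± 7.12 and 45.9 ± 10.7 CPM per kilobase. The levels of Krt8 and Krt19 kept the same order in both populations, whereas Krt20 passed from the third place to the fifth.

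The make-up of the keratin transcripts followed from these shifts. Summed over the 6 genes, the level was 2584 ± 188 CPM per kilobase in tdTom+ and 4826 ± 498 CPM per kilobase in tdTom- cells. Krt8 held 47.9% ± 1.17 of this sum in tdTom+ and 54.1% ± 1.25 in tdTom- cells, and Krt19 held 26.03% ± 0.782 and 28.5% ± 1.42. The share of Krt18 was 22.0% ± 1.24 against 7.41% ± 0.701, while that of Krt20 was 1.77% ± 0.342 against 9.34% ± 1.59 (SD, n = 8 for all). The shares of Krt7 (2.04% and 0.466%) and Krt23 (0.215% and 0.152%) were small in each population. Krt23 thus took a larger mean share of a smaller sum in tdTom+ cells although its own level was lower. The shares depend on the length used. With transcript lengths Krt8 held 43.4% in tdTom+ and 49.4% in tdTom- cells, Krt19 30.1% and 33.2%, and Krt7 3.45% and 0.796%. The direction of each difference between the populations was the same with both lengths.

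**Figure D3:**
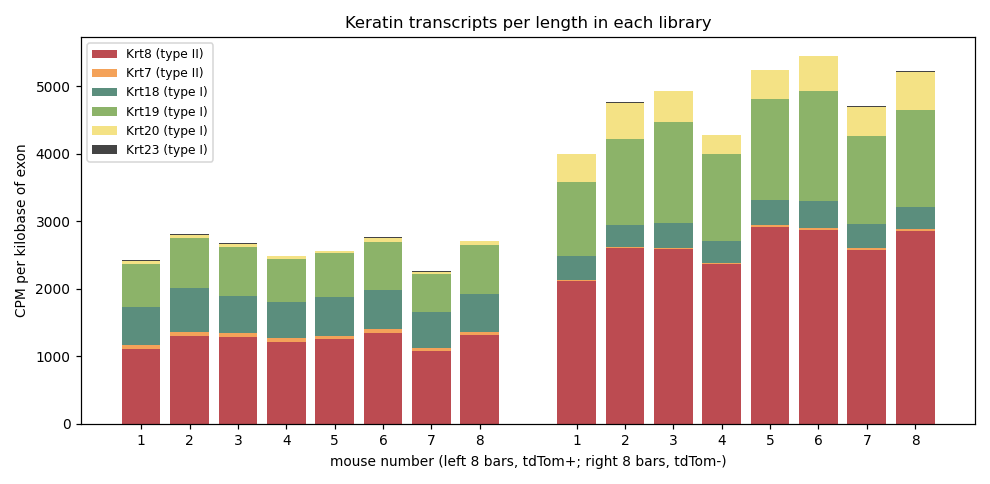
Level of the 6 keratins in CPM per kilobase of exon, stacked for each of the 16 libraries (left, 8 tdTom+; right, 8 tdTom-; numbers are mice). Every tdTom- bar (4000.4 to 5454) is taller than every tdTom+ bar (2257 to 2809), the Krt18 layer is wider in tdTom+ bars, and the Krt20 layer is thin there.

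Ratios within a library do not depend on its depth. The ratio of Krt8 to Krt18 per kilobase of exon was 2.18 ± 0.164 in tdTom+ and 7.36 ± 0.754 in tdTom- cells, with no overlap between libraries (1.97 to 2.36 and 6.001 to 8.57). Krt19 and Krt18, the alternative partners of Krt8, stood at 1.19 ± 0.0946 to 1 in tdTom+ and 3.87 ± 0.360 to 1 in tdTom- cells. On the mean Krt18 and Krt20 changed places, with a ratio of 12.9 ± 2.94 in tdTom+ and 0.820 ± 0.189 in tdTom- cells. In the tdTom- library of mouse 4 Krt18 was still above Krt20 (ratio 1.19). The sum of type II over the sum of type I transcripts was closer between the populations, at 0.999 ± 0.0420 in tdTom+ and 1.20 ± 0.0592 in tdTom- cells (SD, n = 8). It was 0.931 to 1.03 and 1.122 to 1.28 in single libraries, so these ranges did not overlap either. The distance of this ratio from 1 depends on the length used, since with transcript lengths it was 0.882 and 1.01. No test was made on these ratios, which are built from the members tested above.

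Krt8 and Krt18 are neighbours, with starts 23.874 kb apart and read in opposite directions, and no tested gene lies between them. They moved in opposite directions in each of 8 mice. The next tested gene beyond Krt18, Eif4b, had a log2 fold change of 0.07 (adjusted p = 0.3804, edgeR), and the next before Krt8, Krt78, one of 0.81 that did not pass (SE 0.33, adjusted p = 0.0391). On chromosome 11 Krt20 and Krt23 lie 39.8 kb apart and both fell, with log2 fold changes of -3.30 and -0.39. Krt10, on the other side of Krt20, had a value of 0.39 (adjusted p = 0.0380, edgeR) that did not pass. Krt7 ends 1.18 kb from Krt87 on the other strand, which was higher as well. On chromosome 15 the called keratins thus did not all share a direction.

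**Figure D4:**
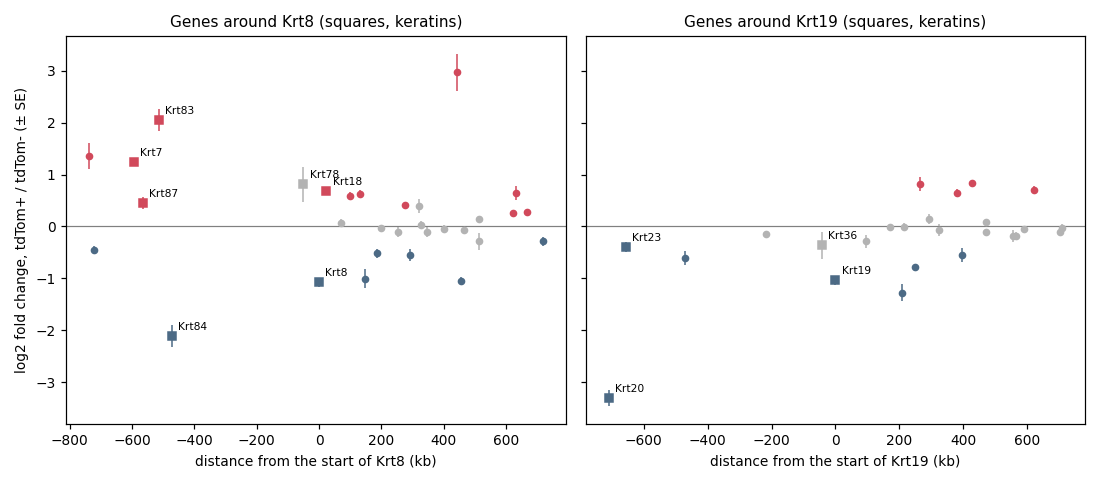
Log2 fold change (tdTom+ over tdTom-, ± SE) of the tested genes around Krt8 and around Krt19 against the distance from the start of that gene in kb, with keratins as squares, called genes in red or blue and others in grey. Krt8 (-1.08) and Krt18 (0.68) stand side by side on opposite sides of 0, and Krt20 (-3.30) lies well below Krt23 (-0.39).

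Of the 48 other keratin genes, 42 had too few counts to be tested, 11 of them with no count in any library, and 6 were tested. Of these 6, 2 were higher, 1 was lower and 3 did not pass, and without mouse 4 or without mouse 7 a count of 2 was lower. Among all genes tested 51% passed, 25.5% in each direction, so these calls do not set the other keratins apart. Krt83 and Krt84 are hard keratins known from hair and similar structures. Krt83 averaged 3.97 ± 1.28 CPM in tdTom+ libraries against 0.972 ± 0.240 CPM in tdTom- libraries (SD, n = 8), a log2 fold change of 2.05 (SE 0.21, adjusted p = 4.11e-08, edgeR). Krt84 showed the reverse, with 0.352 ± 0.0921 and 1.53 ± 0.423 CPM and a log2 fold change of -2.12 (SE 0.21, adjusted p = 2.50e-08, edgeR). Krt87 had a log2 fold change of 0.45 (SE 0.12, adjusted p = 0.0020, edgeR), which did not pass in mice 1 to 3 or in mice 5 to 8 alone (0.27 and 0.41). Krt83 and Krt84 lie within the same stretch of chromosome 15 as Krt87, and hard keratins resemble each other in sequence. Whether reads were divided among them was not tested. No untested keratin reached a mean above 0.836 CPM in either population.

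The keratins of stratified squamous epithelium were low, and several of them stood apart in the tdTom+ library of mouse 7. There Krt17 had 100 counts, Krt14 81, Krt5 52 and Krt6a 41, while each had at most 5 counts in the other tdTom+ libraries. In the tdTom- library of the same mouse the counts were 2, 17, 0 and 0, and Krt14 had 5 to 36 counts over all tdTom- libraries (up to 1.33 CPM). Krt76 (16 of its 16 counts in the series) and Krt6b (18 of 26) also peaked in the tdTom+ library of mouse 7, at 0.956 and 1.08 CPM. Krt15, Krt13 and Krt4 did not stand apart in this way. In the tdTom+ library of mouse 7 Krt15 had 10 counts (4 to 12 in the other tdTom+ libraries) and Krt13 had 5 (3 to 12). Krt4 had 13 there (1 to 10, and up to 20 in tdTom- libraries), and the desmosome genes Dsg3 and Dsc3 had 0. The squamous marker list summed to 0.409 to 11.8 CPM in tdTom+ and 0.908 to 2.18 CPM in tdTom- libraries, and Trp63, the factor that defines basal squamous cells, had 1 count in the library of mouse 7. That library also had the lowest Krt7, Krt8, Krt18 and Krt19 of its group. Without mouse 7 the log2 fold changes were 1.26 for Krt7, -1.05 for Krt8, 0.70 for Krt18, -1.01 for Krt19, -3.28 for Krt20 and -0.34 for Krt23, and all 6 still passed.

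To find the genes whose pattern was most like that of a keratin, the log2 CPM of each gene was centred on its mean over the 16 libraries and the root mean square difference was taken. Krt8 and Krt19 were each other's nearest gene among all genes tested, with a difference of 0.073 on the log2 scale. The next were Gng12 for Krt8 (0.097) and Net1 for Krt19 (0.119). Krt7 was closest to Sgsm3 (0.072) and Syngr2 (0.098), and Krt18 to Rad51d (0.084) and B3gat3 (0.096). For Krt23 the nearest were Gm10093 (0.119) and Ddr1 (0.126). Krt20 had no gene as close, since Ptprh and Stom were at 0.220 and 0.229, and a called fall of at least 3.0 was rare (1.36% of genes tested). These distances are descriptions over 16 libraries that fall into 2 populations, and they were not tested. They mostly restate the population difference, since near genes have similar log2 fold changes. Sgsm3 was at 1.25 beside 1.24 for Krt7, and Rad51d at 0.67 beside 0.68 for Krt18. Different nearest genes for Krt7 and Krt18 thus follow from their fold changes.

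Keratin filaments end at desmosomes, the junctions that tie neighbouring cells together. Of the 13 desmosome genes listed, 9 were tested, of which 7 were lower, 1 was higher and 1 did not pass, with a median log2 fold change of -0.73 against 0.0039 over all genes tested, of which 25.5% were lower and 25.5% higher. With the replicate block 8 were lower, as Pkp2 (-0.21) then passed. The cadherin Dsg2 averaged 204 ± 17.4 CPM in tdTom+ libraries against 389 ± 40.4 CPM in tdTom- libraries (log2 fold change -0.93, SE 0.07). Plakoglobin (Jup), which links the cadherins to the plaque, changed by -0.78, plakophilin 3 (Pkp3) by -0.73 and desmoplakin (Dsp), the plaque protein that binds keratins, by -0.74. Dsp was at 410 ± 24.8 and 685 ± 51.5 CPM. The gene that rose was the plakophilin Pkp1 (0.50), named because it was the sole exception. The adjusted p of each gene named here other than Pkp2 was at most 2.19e-05 (edgeR). For Pkp2 it was 0.0104 on population alone and 0.00048 with the block (edgeR).

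Cytolinkers and hemidesmosome proteins tie keratins to other structures. Of 10 listed genes 9 were in the files and 8 were tested, with 6 lower, 1 higher and 1 that did not pass, and a median of -0.34, where 25.5% of all genes tested were lower and 25.5% higher. Envoplakin (Evpl), a plakin of differentiated epithelia, averaged 11.3 ± 1.72 CPM (tdTom+) against 69.5 ± 12.9 CPM (tdTom-), a log2 fold change of -2.62 (SE 0.12, adjusted p = 6.77e-14, edgeR). Its partner periplakin (Ppl) changed by -0.45 and plectin (Plec), which links keratins to actin and to the membrane, by -0.69. Dystonin (Dst) had a value of 0.43 (adjusted p = 0.0064, edgeR), but it no longer passed without mouse 1 (0.42), mouse 4 (0.40), mouse 6 (0.40) or mouse 8 (0.40), so that no gene of the list was then higher, while without mouse 5 the number was 2.

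Proteins that bind, modify or turn over keratins, among them the 14-3-3 family, made a list of 20 genes. Of these 3 were higher, 7 were lower and 10 did not pass, with a median of -0.12. The 10 called genes of 20 are close to the 51% called among all genes tested. Stratifin (Sfn), the epithelial 14-3-3 protein, averaged 72.3 ± 9.04 CPM in tdTom+ libraries against 269 ± 51.1 CPM in tdTom- libraries (log2 fold change -1.89, SE 0.11, adjusted p = 4.37e-12, edgeR). Tradd, an adaptor of tumour necrosis factor signalling that binds KRT18, changed by -0.90, and Fam83h, which brings casein kinase 1 to keratin filaments, by -0.77. Rchy1, a ubiquitin ligase, rose by 0.74. With the mouse as a replicate block 5 of the 20 were higher, as Csnk1a1 and Hspb1 then passed. Of 15 genes for other intermediate filaments 8 were tested, with 5 lower, 2 higher and 1 that did not pass (median -0.60), again beside 25.5% in each direction among all genes. The lamin Lmnb1 changed by -0.70 from 106 ± 17.2 CPM in tdTom- cells. The neurofilament genes Nefm (-1.23) and Nefh (0.98) and the lens filament gene Bfsp1 (0.76) changed at mean levels of at most 6.34 CPM. Vim, the filament of mesenchymal cells, was at 7.31 ± 2.34 and 10.5 ± 3.97 CPM and did not pass (log2 fold change -0.51, adjusted p = 0.0539, edgeR).

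**Figure D5:**
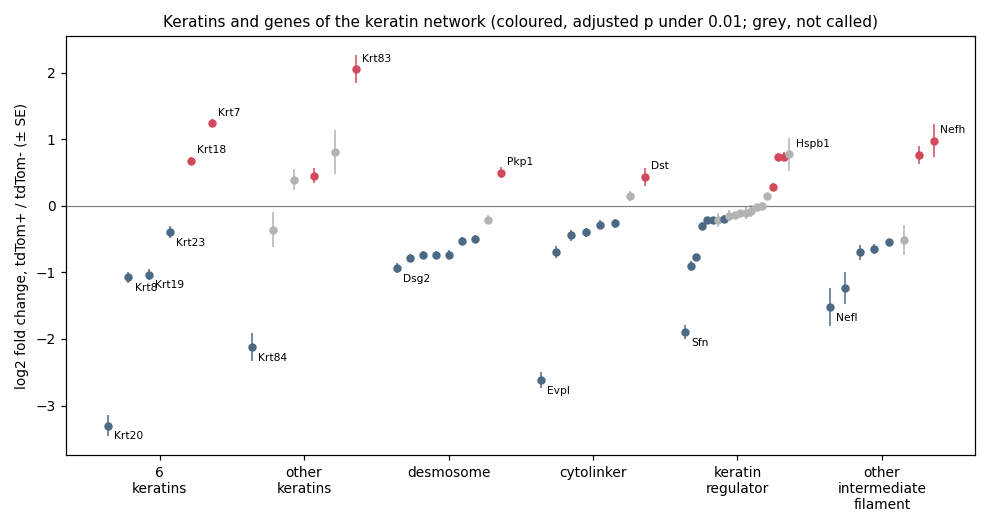
Log2 fold change (tdTom+ over tdTom-, ± SE) of each tested gene among the 6 keratins, the other keratins, and the lists of desmosome, cytolinker, keratin regulator and other intermediate filament genes, with called genes in red (higher) or blue (lower) and others in grey. Most desmosome genes lie between -0.93 and -0.50, a smaller fall than that of Krt8 (-1.08) and Krt19 (-1.03). Evpl (-2.62) is the gene of these lists closest to Krt20 (-3.30).

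Markers of further cell types were read beside these values. For comparison, 25.5% of all 15841 genes tested were lower and 25.5% higher. With the replicate block 4574 of them were lower and 4494 higher. The 4 pan-epithelial genes were all lower in tdTom+ cells (median -0.49), among them Epcam (-0.20), the gene of the sort, and the cadherin Cdh1 (-0.37), beside -1.08 for Krt8 and -1.03 for Krt19. Epcam did not pass once any of mice 2 to 8 was left out (-0.20 to -0.18). Of the tuft cell genes 3 of 5 tested were lower (Trpm5 -0.93, Dclk1 -0.57) and 4 with the block, and of the stem cell genes 4 of 5 were lower while Rgmb was higher (0.53). Smoc2 was among the 4 (-0.38), and did not pass without mouse 1 (-0.31). Of 6 proliferation genes 3 were lower, and 5 with the replicate block. Mki67 (-0.37) and Top2a (-0.40) did not pass but did with the block, and Top2a also passed without mouse 2 (-0.39) and with DESeq2 (-0.40), among other settings. Of the immune genes 1 of 3 tested was lower (Ptprc -1.52), and 3 with the block, among them Cd74 (-1.68), which passed without mouse 6 (-1.82) too, on summed levels of 4.28 to 36.04 CPM in tdTom+ and 16.7 to 94.4 CPM in tdTom- libraries. The mesothelial markers, read because mesothelium also contains keratins such as Krt8, Krt18 and Krt19, summed to at most 0.488 CPM with 2 of 4 genes at 0, and the stromal list to at most 18.2 CPM.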

How the data were processed

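RNA of sorted EpCAM+ tdTom+ and EpCAM+ tdTom- colon cells of 8 mice was sequenced by the authors as single-end reads, aligned to GRCm38 with TopHat2 (version 2.1.1 in the submitters' processing notes) and counted per gene over exons. The deposited files hold these raw counts, from primary alignments on the reverse strand, without normalization. The file headers name featureCounts 1.5.0-p1, while the notes name Subread 1.5.2.

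The test was that of edgeR (4.0.16, under R 4.3.3), in the steps filterByExpr, TMM scaling, glmQLFit and glmQLFTest on population alone, with a Benjamini-Hochberg adjusted p under 0.01 over all 15841 genes tested. CPM use TMM-scaled library sizes, log2 CPM a prior count of 2, and fold changes are the fitted ones. SEs were derived from the fold change and the F statistic. Levels per kilobase divide CPM by the exon length in the files. Symbols came from GENCODE M21 for 44585 genes.

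The labels give both libraries of a mouse the same number, and these come from the same animal. Deviations of both libraries from their group means correlated across genes by at least 0.22 within a mouse (mean 0.30) and by at most 0.17 between mice. The alternatives were the mouse as a replicate block, DESeq2 1.42.0 with and without it, limma-voom (limma 3.58.1), RLE, upper-quartile and library-size scaling, no filter or at least 10 counts in every sample, an adjusted p of 0.05, each mouse left out, and mice 1 to 3 or 5 to 8 alone. Lengths of transcripts in place of exons were added after seeing the data.

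The members and gene lists were chosen with earlier results of these data known. Genes named beyond the members are the up to 4 largest changes of each keratin network list that passed and had the same direction in 8 of 8 mice, the 2 most abundant genes of marker lists, the 2 nearest in pattern to each member, and those said to be exceptions. On simulated counts for this comparison (15556 genes) the fit found 97 of 100 genes changed by 1 on the log2 scale and 100 of 100 changed by 2, with 2 false calls. In the simulation 200 genes were changed and the libraries of a mouse were drawn independently. In the real data 51% of genes passed and the libraries of a mouse were correlated, so these rates need not hold there. Promoters came from RefSeq (GRCm38.p6), with entries for 5 of the 6 members, and motifs were searched on both strands of the 250 bases before the start. Summaries used Python 3.11.15 with pandas 2.3.3 and numpy 2.4.6. Libraries of other tissues and genotypes were not analysed here.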

Additional observations from a re-analysis of the deposited data

Results flagged for a closer look

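Within each group of 8 libraries, the highest and the lowest log2 CPM of each of the 6 keratins were compared with their neighbours by Dixon's criterion. Of 12 groups 3 held a library that stood apart, where chance flags about 1 group in 20. Krt7 in the tdTom- library of mouse 1 was at 7.51, above the other 7 at 7.18 to 7.33. Krt18 in the tdTom+ library of mouse 2 was at 9.84, above the others at 9.52 to 9.67. Krt20 in the tdTom- library of mouse 4, the deepest of all libraries, was at 9.05, below the others at 9.62 to 10.10. In each case the tdTom+ and tdTom- ranges stayed apart with that library included. Without the mouse concerned the log2 fold change was 1.27 for Krt7, 0.63 for Krt18 and -3.30 for Krt20.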

How the results depend on the processing

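Of 120 values of the 6 keratins under 20 alternatives, 119 kept their direction and side of the threshold. The exception was Krt23 in mice 1 to 3 alone (-0.26, adjusted p = 0.2136, edgeR), a fit on fewer mice. With the replicate block the log2 fold changes were 1.24 (Krt7), -1.07 (Krt8), 0.68 (Krt18), -1.03 (Krt19), -3.30 (Krt20) and -0.40 (Krt23), and beyond the calls named above it changed none of a gene named. Leaving out 1 mouse at a time gave ranges of 1.21 to 1.27 (Krt7), -1.09 to -1.05 (Krt8), 0.63 to 0.71 (Krt18), -1.06 to -0.9997 (Krt19), -3.33 to -3.25 (Krt20) and -0.44 to -0.34 (Krt23), and over all alternatives Krt19 ran from -1.15 to -0.88. Scaling by library size alone moved the median of all genes by -0.05. Of 718 values of 36 other genes 678 were unchanged in this sense, 24 no longer passed, 16 newly passed and 0 reversed. In mice 1 to 3 alone 2546 genes were higher and 2559 lower (4032 and 4042 with all mice), with 2 cytolinkers and 3 keratin regulators lower, 0 cytolinkers and 1 other filament gene higher and 1 other keratin higher. Nefh and Cdh1 (0.58 and -0.35), Ppl (-0.49, and -0.39 in mice 5 to 8) and Smoc2 (-0.48 and -0.26) did not pass there, and Dst was 0.25 and 0.52. Without a filter 4 other keratins were higher and 3 lower, and with at least 10 counts in every sample 0 were lower, since Krt84 was then not tested. DESeq2, the block and an adjusted p of 0.05 each gave 5 keratin regulators higher. Epcam did not pass in mice 1 to 3 (-0.15) or without a filter (-0.19). Where no cause is given here, the cause was not tested. Depth limits the untested keratins, whose group means were at most 0.836 CPM.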
